A study of Ovis aries with 30 samples.

Results

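Expression of 6 genes that activate, inactivate, carry or sense thyroid hormone was described in 2 tissues of newborn Romney lambs, perirenal brown adipose tissue (BAT) and the thyroid. The genes were the deiodinases DIO1, DIO2 and DIO3, the transporter SLC16A10 and the receptors THRA and THRB, which were taken by name from the count table and are 6 of its 28524 genes. RNA was sequenced from both tissues of 15 lambs, which gave 30 libraries, each from 1 tissue of 1 animal. The heavier lambs of twin pairs had been kept for 2 days at 4 °C (cold, 6 lambs) or for 2 days at 20 to 22 °C (ambient temperature, AT, 6 lambs), and 3 control lambs were sampled at the start, at an age of about 24 h. Treated lambs were thus 2 days older than controls, so that treatment and age cannot be told apart against the controls, and cold against AT is the comparison at equal age. Over all genes, the study compared each treatment with the controls to learn how short cold exposure changes BAT and thyroid. For a chosen set of genes, DIO2, THRA and THRB among them, it also compared cold with AT lambs. The paper reported no significant difference for these genes in any comparison, and it also measured DIO2 by RT-qPCR in both tissues. By RT-qPCR, its log2 fold changes of DIO2 against controls were negative for both treatments in both tissues. It left THRB out of its thyroid heatmap for insufficient counts. The study left 1 control out for outlier counts, which was Control 2 in both tissues when the counts were matched to the study's normalized values. Control 1 and Control 3 therefore stand for the controls here, and values of Control 2 are given beside them.

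The thyroid releases mostly thyroxine, a prohormone with little activity at the nuclear receptors. The deiodinases are selenoproteins: DIO2 and DIO1 turn thyroxine into the active triiodothyronine by removing an iodine from the outer ring, and DIO3 inactivates both hormones by removing one from the inner ring. DIO1 also clears inactive iodothyronines and is known as an enzyme of liver, kidney and thyroid. In brown adipocytes, DIO2 supplies triiodothyronine inside the cell, where it acts together with noradrenaline on UCP1, the uncoupling protein that releases heat. SLC16A10 is a membrane transporter of aromatic amino acids and iodothyronines. THRA and THRB are nuclear receptors that bind triiodothyronine on DNA, mostly together with a retinoid X receptor.

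Positions are those of the deposited table, in the build Oar_rambouillet_v1.0. DIO1 lies on chromosome 1 (30026834 to 30047246, plus strand) and was counted over 4 exon blocks of 2987 bases in all. DIO2 lies on chromosome 7 (95875297 to 95889901, minus strand), with 2 exon blocks and 6401 bases. DIO3 is a gene of 1 exon block and 837 bases on chromosome 18 (67007875 to 67008711, plus strand). SLC16A10 lies on chromosome 8 (29362366 to 29479671, minus strand), with 6 exon blocks and 8819 bases. THRA lies on chromosome 11 (22789471 to 22814250, minus strand), with 9 exon blocks and 6265 bases. THRB lies on chromosome 26 (45344484 to 45425093, plus strand), and its model of 7 exon blocks holds only 1361 bases, so its level per length depends on how much of the transcript the model covers. The exons of DIO2 share 198 bases with LOC105606533 and those of THRA share 200 bases with NR1D1, both on the opposite strand. The sources used here do not say whether counting used the strand, so reads in these stretches are uncertain.

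The libraries held 31556500 to 37025998 counts in BAT and 25062784 to 30124871 in thyroid tissue. LOC114112617 and LOC114115287, which have no symbol, together took 43.8% to 76.5% of the BAT counts and 5.18% to 27.8% of the thyroid counts. Normalized counts are counts divided by a size factor, for which the study chose HUWE1, RPL19 and ACTB as reference genes. The tissue labels were checked with marker genes. UCP1 had 359 to 40601 counts in BAT and 3 to 378 in thyroid tissue, while TG, the thyroglobulin gene, had 10 to 1160 counts in BAT and 901630 to 4039959 in thyroid tissue. Some thyroid libraries stood apart by markers of other tissues. The summed normalized count of 7 skeletal muscle markers was 3268290 in AT 3 and 285188 in Control 1, against 95.6 to 3767 in the other 13 thyroid libraries. In whole tissue, fewer cells of a type and less RNA per cell cannot be told apart.

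Levels of different genes were compared per length, as normalized counts per kb on a scale set over both tissues. In BAT, DIO1 had the highest median (281 per kb over 15 libraries), followed by THRA (225), DIO2 (62.1), THRB (53.1), SLC16A10 (5.51) and DIO3 (3.88). The order was steep only in places. The pairs tested were neighbours in the order of medians of the same libraries, so their p-values are a description. They measure the spread between lambs and do not cover the exon lengths used as divisors, such as the short model of THRB. DIO1 exceeded THRA in 8 of 15 BAT libraries (permutation test of paired differences, p = 0.656), and DIO2 exceeded THRB in 10 of 15 (permutation p = 0.496), so these neighbours did not differ beyond their spread. THRA was above DIO2 in 12 of 15 libraries (permutation p = 0.00146), THRB above SLC16A10 in 15 of 15 (permutation p = 6.1e-05, the smallest that 15 libraries can give) and SLC16A10 above DIO3 in 12 of 15 (permutation p = 0.0151). In thyroid tissue, THRA stood alone at a median of 185 per kb and was above DIO3 in 15 of 15 libraries (permutation p = 6.1e-05). The other 5 genes had medians between 5.26 per kb (SLC16A10) and 7.93 per kb (DIO3), and none of the 4 neighbouring pairs among them differed beyond their spread (permutation p between 0.154 and 0.941).

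DIO1, DIO2 and THRB were higher in BAT than in thyroid tissue. These 3 genes were called higher in BAT, at an adjusted p under 0.05 in edgeR's quasi-likelihood test, in each of the 3 groups of lambs. Of all 17021 genes tested, 36.4% were called in control lambs, 63.8% in AT lambs and 63.5% in cold lambs, and 18.7%, 43.6% and 42.3% were called higher in BAT.

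DIO1 showed the largest difference between the tissues. Its log2 difference, BAT minus thyroid, ranged from 2.89 to 9.70 within single lambs and was above 0 in 15 of 15. The fitted log2FC was 4.43 ± 1.13 (SE) in control lambs (edgeR adjusted p = 0.00332), 5.41 ± 0.68 in AT lambs (edgeR adjusted p = 2.27e-07) and 4.66 ± 0.67 in cold lambs (edgeR adjusted p = 1.70e-06). With all 3 controls, the log2FC of DIO1 in control lambs was 6.69, and it was 8.03 when Control 2 stood in for Control 1 and 7.02 when it stood in for Control 3. DIO1 was read at 102 to 1949 counts in BAT and at 7 to 148 counts in thyroid tissue.

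DIO2 was above its thyroid level in 14 of 15 lambs. The exception was AT 4, with a log2 difference of -0.29, and the highest difference was 6.52, in AT 2. The fitted log2FC was 3.85 ± 1.30 in control lambs (edgeR adjusted p = 0.0221), 3.78 ± 0.75 in AT lambs (edgeR adjusted p = 0.000127) and 4.29 ± 0.77 in cold lambs (edgeR adjusted p = 3.59e-05).

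THRB was likewise higher in BAT in 15 of 15 lambs, by 0.22 in AT 3 and by 1.98 to 5.19 in the other lambs on the log2 scale. The fitted log2FC was 2.78 ± 0.96 in control lambs (edgeR adjusted p = 0.0253), 2.02 ± 0.53 in AT lambs (edgeR adjusted p = 0.0017) and 3.09 ± 0.56 in cold lambs (edgeR adjusted p = 3.02e-05). In AT 3, the thyroid library with the muscle markers, THRB had 90 counts, and without this lamb the log2FC in AT lambs was 3.04 (edgeR adjusted p = 3.01e-06). With only Control 1 or only Control 3 left, DIO1, DIO2 and THRB kept their direction in control lambs, and none of the 3 was called (edgeR adjusted p between 0.0515 and 0.274).

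THRA was higher in BAT in 11 of 15 lambs with the reference genes and in 7 of 15 with TMM scaling over all genes, so its direction depended on the scaling. The mean log2 difference was 0.25 ± 0.35 (SD, n = 15, permutation p = 0.0168) with the reference genes and -0.03 (permutation p = 0.691) with TMM. Its log2FC in cold lambs was 0.28 ± 0.14 (edgeR adjusted p = 0.074) and 0.06 with TMM. THRA was called higher in BAT without Cold 5 (0.35, edgeR adjusted p = 0.0465), without Cold 6 (0.36, edgeR adjusted p = 0.0467) and, in AT lambs, without AT 3 (0.40, edgeR adjusted p = 0.0134). With the reference genes, the median log2FC over all genes, BAT against thyroid, was 0.33 in cold, 0.35 in AT and 0.06 in control lambs. With TMM scaling, this median was 0.12, 0.08 and 0.04, and the values of THRA are to be read against it. SLC16A10 was higher in BAT in 10 of 15 lambs (permutation test of paired differences, p = 0.212). DIO3 leaned the other way, with 11 of 15 lambs higher in thyroid tissue and a mean log2 difference of -1.05 ± 2.004 (SD, n = 15, permutation p = 0.0634). With TMM scaling, the mean difference of DIO3 was -1.27 (permutation p = 0.0298), at counts of 0 to 7 in BAT.

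**Figure D1:**
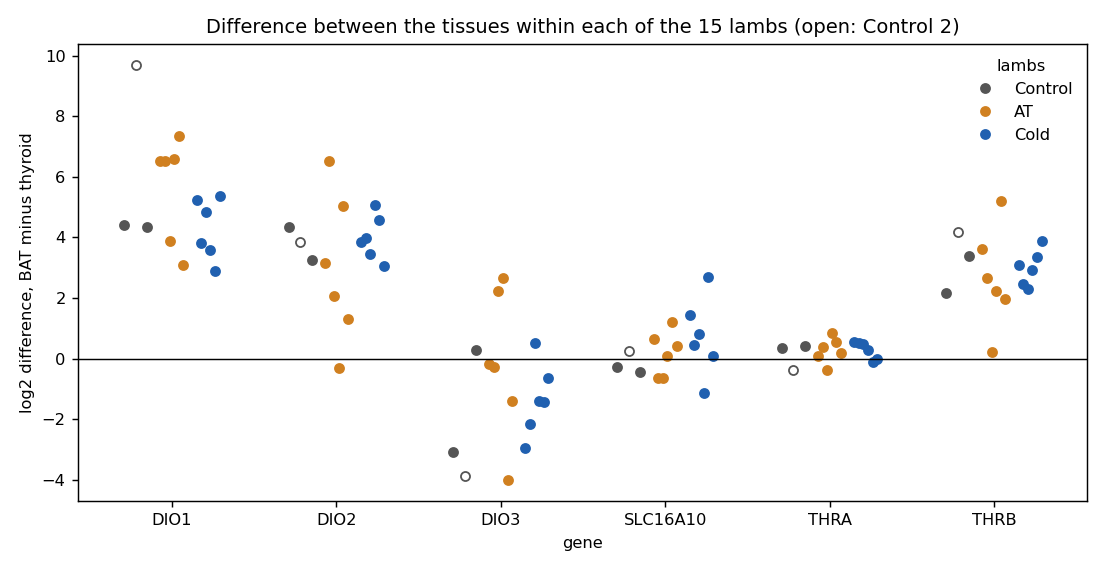
Difference between the tissues for the 6 genes, as log2(normalized count + 1) in BAT minus thyroid tissue on the scale of both tissues, with 1 point for each of the 15 lambs and an open point for Control 2. All points of DIO1 and THRB lie above 0, 14 of 15 do for DIO2, and 11 of 15 lie below 0 for DIO3.

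Within BAT, none of the 5 genes tested was called between any groups. DIO3, the sixth, did not pass the filter of 10 counts in 10 libraries. Of all 14905 genes tested, 1.48% were called between cold and control lambs, 9.3% between AT and control lambs and 0.309% between cold and AT lambs. At an unadjusted p under 0.05, DIO1 between cold and AT lambs was the only one of these 15 results, and DESeq2's Wald test called none of them. Over all genes, 12.3% had such a p between cold and AT lambs, 18.1% between cold and control lambs and 26% between AT and control lambs. Both comparisons with controls share the same control lambs.

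DIO1 had 645 normalized counts in Control 1, 245 in Control 3 and 4176 in Control 2. In AT lambs, DIO1 ranged from 166 (AT 6) over a median of 977 to 1932 (AT 1), and in cold lambs from 74.1 (Cold 5) over a median of 272 to 540 (Cold 1). Of the AT lambs, 5 of 6 lay above every cold lamb, and AT 6 lay among the cold lambs, so the groups overlapped. The means were 277 ± 186 (SD, n = 6) in cold and 989 ± 581 (SD, n = 6) in AT lambs, a log2FC of -1.84 ± 0.56 (SE) with an unadjusted p of 0.00511 and an edgeR adjusted p of 0.226. An exact permutation test over the 924 splits of the 12 lambs gave p = 0.0325, unadjusted and 1 of 36 such tests. The edgeR adjusted p was 0.0624 without AT 6 and up to 0.496 under the other settings. Markers of thyroid follicular cells were low but uneven in BAT, with a summed normalized count of 230 to 1610 in AT lambs, highest in AT 1, and 132 to 564 in cold lambs. In AT 1, DIO1 had 1949 counts in BAT and 64 counts in thyroid tissue, where these markers summed to 2002970. The part of thyroid follicular cells in the DIO1 values of BAT was not tested.

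Against the controls, DIO1 in BAT rested on which control was used. Between AT and control lambs, its log2FC was 1.06 ± 0.81 (edgeR adjusted p = 0.437) with Control 1 and Control 3, and -0.77 (edgeR adjusted p = 0.522) with all 3 controls. Between cold and control lambs, it was -0.78 ± 0.74 (edgeR adjusted p = 0.623), and -2.61 with all 3 controls (edgeR adjusted p = 0.0501). With Control 2 in place of Control 1 it was -2.99 (edgeR adjusted p = 0.0393), with Control 2 in place of Control 3 it was -3.11 (edgeR adjusted p = 0.0222), and without Control 1 it was 0.06. The brown adipocyte markers also stood apart in this library, at a summed normalized count of 362188 in Control 2 against 102025 and 103942 in the other controls.

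DIO2 varied widely within each treated group. It had 746 normalized counts in Control 1, 510 in Control 3 and 1328 in Control 2. The AT lambs ranged from 20.3 (AT 4) over a median of 189 to 1016 (AT 2), and the cold lambs from 122 (Cold 6) over a median of 219 to 1028 (Cold 4). Of the 12 treated lambs, 10 lay below all 3 controls, and AT 2 and Cold 4 lay above Control 1 and Control 3. The log2FC was -0.83 ± 1.04 for cold against control (edgeR adjusted p = 0.72) and -1.12 ± 1.02 for AT against control (edgeR adjusted p = 0.522). Without Cold 4 the first was -1.47, and the second was -2.04 without AT 2 (edgeR adjusted p = 0.166) and -1.98 with the RNA integrity number as a covariate. With all 3 controls they were -1.19 and -1.50. Between cold and AT lambs, it was 0.29 ± 0.77 (edgeR adjusted p = 0.89), and single lambs turned or enlarged it, to -0.34 without Cold 4 and to 1.21 without AT 2. The overlapping LOC105606533 had 4 to 40 counts in these libraries.

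DIO3 was near the limit of detection in BAT. It had 0 counts in 4 of 15 libraries (Cold 1, Cold 2, AT 5 and Control 2), in each of which 3 counts would have stood for 2.12 to 6.46 normalized counts, and its highest count was 7, in Control 3. Differences between the groups were not detectable at this depth.

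SLC16A10 was low in BAT, with a ratio of 4.62 between its highest and lowest library. It was at 26.8 normalized counts in Control 1 and in Control 3 and 40.9 in Control 2. The AT lambs ranged from 16.3 over a median of 36.96 to 75.4, and the cold lambs from 19.7 over a median of 28.9 to 42.9. All groups overlapped, and the lowest edgeR adjusted p of the 3 comparisons was 0.575.

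THRA was the steadiest of the 6 genes in BAT, with a ratio of 1.67 between its highest and lowest library. It had 749, 852 and 801 normalized counts in Control 1, Control 3 and Control 2. The AT lambs ranged from 748 over a median of 882 to 1252, and the cold lambs from 753 over a median of 919 to 1146. The lowest edgeR adjusted p of its 3 comparisons was 0.78. NR1D1, the overlapping clock repressor gene, had 77 to 339 counts in the 14 libraries used, against 581 to 1585 for THRA.

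THRB had 37.03 and 37.99 normalized counts in Control 1 and Control 3 and 90.4 in Control 2. Its AT lambs ranged from 28.99 over a median of 56.6 to 72.4, and its cold lambs from 28.6 over a median of 39.9 to 70.7. Groups overlapped, and the lowest edgeR adjusted p was 0.556. THRB had 22 to 73 counts a library.

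**Figure D2:**
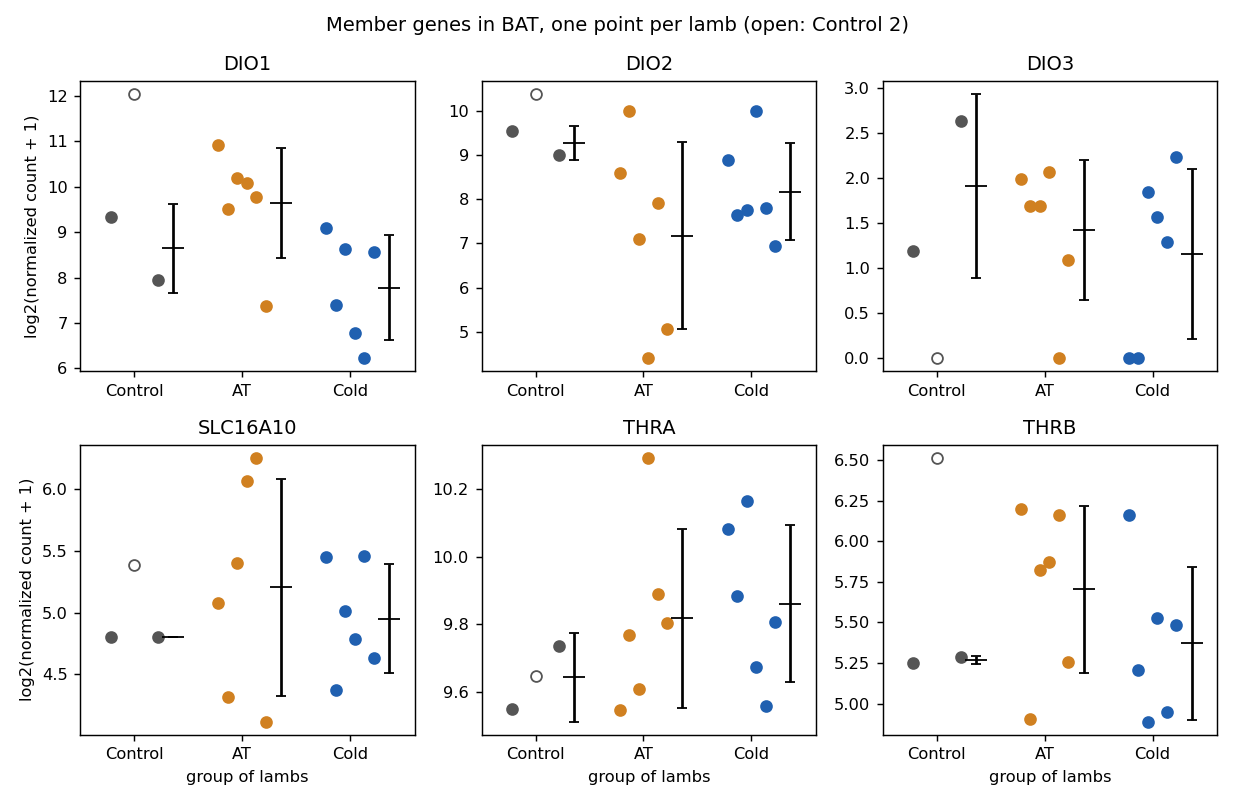
Levels of the 6 genes in BAT as log2(normalized count + 1), with 1 point per lamb by group, an open point for Control 2, and a bar for the mean ± SD of the filled points. DIO1 is lower in cold than in AT lambs except for AT 6, DIO2 spreads widely in both treated groups, and THRA spans a ratio of 1.67.

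DIO2 was set beside genes of heat production over the 12 treated lambs. Its level in BAT moved with UCP1 (Pearson r = 0.88, permutation p = 0.00023, adjusted p = 0.00207 over 9 relations, and Spearman rho = 0.85, permutation p = 0.0008, adjusted p = 0.0072). UCP1 ranged from 202 (AT 6) over a median of 3435 to 12962 normalized counts (AT 2) in AT lambs, and from 2962 (Cold 6) over a median of 8724 to 12416 (Cold 1) in cold lambs. AT 2 was the highest AT lamb for both genes. Without AT 4 and AT 6, the 2 lambs farthest from the median of DIO2, r was 0.79 (permutation p = 0.00814). Within the 6 AT lambs r was 0.91 (exact permutation p = 0.0125), and within the 6 cold lambs it was 0.74 (exact permutation p = 0.0986). By r with DIO2, UCP1 took place 9 of 14904 genes. The 2 genes were divided by the same size factor in each library, and the part of this shared divisor in r was not tested. With TMM scaling, which also divides both genes by a common factor, r was 0.88.

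PPARGC1A, a coactivator of mitochondrial genes, had r = 0.75 with DIO2 (permutation p = 0.0061, adjusted p = 0.0274) and rho = 0.54 (permutation p = 0.0737, adjusted p = 0.221). Without AT 4 and AT 6, r fell to 0.40 (permutation p = 0.261), so the size of r over all treated lambs depended on those lambs. Within the 6 cold lambs r was 0.79 (exact permutation p = 0.075), and within the 6 AT lambs it was 0.71 (exact permutation p = 0.126). ADRB3, the adrenergic receptor of adipocytes, had r = 0.50 (permutation p = 0.1, adjusted p = 0.301) and rho = 0.57 (permutation p = 0.0593, adjusted p = 0.221). The r of ADRB3 was 0.24 without AT 6 and 0.81 without AT 4. Without both lambs, r was 0.62 (permutation p = 0.0566) and rho was 0.72 (permutation p = 0.0236, both unadjusted).

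**Figure D3:**
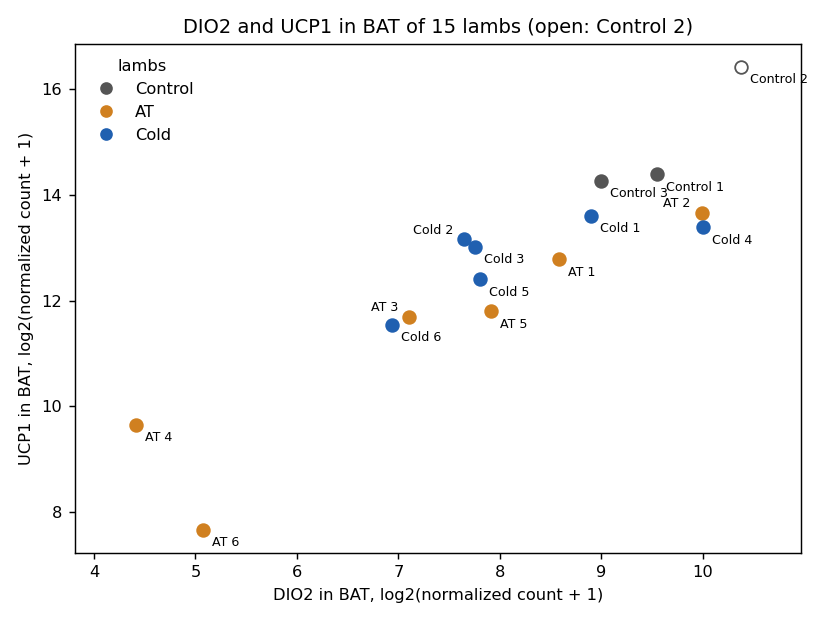
DIO2 against UCP1 in BAT, both as log2(normalized count + 1), with 1 labelled point per lamb and an open point for Control 2, which like the other controls was not in the correlation. Over the 12 treated lambs r was 0.88, with AT 4 and AT 6 at the low end and AT 2 and Cold 4 at the high end of DIO2.

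Within thyroid tissue, none of the 5 genes tested was called in any comparison either. There, 19.3% of the 16122 genes tested were called between cold and control lambs, 21% between AT and control lambs and 0% between cold and AT lambs, where 870 genes had an unadjusted p under 0.05. No member reached an unadjusted p under 0.05 in edgeR's test, and DESeq2's Wald test called none, with an unadjusted p of 0.0451 for DIO1 and 0.0352 for THRB between cold and AT lambs. In edgeR's test, 35.5% of all genes reached it between cold and control lambs, 36.5% between AT and control lambs and 5.4% between cold and AT lambs. The median log2FC over all genes was -0.28 in both comparisons with controls, and 0.02 and 0.05 with TMM scaling, and values against controls are to be read against it.

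DIO2 was lower in treated than in control lambs in most libraries of thyroid tissue. It had 98.9 normalized counts in Control 1, 135 in Control 3 and 233 in Control 2. The cold lambs ranged from 22.6 over a median of 42.9 to 80.9, all below the 3 controls, and the AT lambs from 18.5 over a median of 51.6 to 113, with AT 1 among the controls. Between cold and control lambs, the log2FC was -1.23 ± 0.58 (edgeR adjusted p = 0.143), and an exact permutation test gave p = 0.0714, where 2 against 6 lambs allow no less than 0.0357. Groups that did not overlap were found for 35.4% of all genes in this comparison, counted with Control 1 and Control 3 only. With all 3 controls, the log2FC was -1.64 ± 0.52 (edgeR adjusted p = 0.0402, exact permutation p = 0.0119, the smallest that 3 against 6 lambs allow), and with TMM scaling -0.93 (edgeR adjusted p = 0.329). The call with all 3 controls rested on adding Control 2, which the study left out. This thyroid library had 27.8% of its counts in LOC114112617 and LOC114115287, against 14.9% in AT 3, the next. Its parathyroid markers were also the highest, at a summed normalized count of 9381, against 1267 in Cold 4, the next. Between AT and control lambs, the log2FC was -1.03 ± 0.58 (edgeR adjusted p = 0.218), and -1.44 with all 3 controls (edgeR adjusted p = 0.0697). The overlapping LOC105606533 had 2 to 33 counts in thyroid tissue, where DIO2 had 20 to 145 counts, and its part in the DIO2 counts was not tested.

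DIO1 had 81.1 normalized counts in Control 1, 29.4 in Control 3 and 11.3 in Control 2. In AT lambs it ranged from 12.9 over a median of 40.3 to 202, and in cold lambs from 21.9 over a median of 27.4 to 35.1. The value of 202 was that of AT 3, and 53.8 in AT 1 was the next. Between cold and AT lambs, the log2FC was -1.12 ± 0.56 (edgeR adjusted p = 0.911). Without AT 3 it was -0.25, at an edgeR adjusted p of 0.962.

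DIO3, the inactivating enzyme, had 42.2 normalized counts in Control 1, 22.5 in Control 2 and 10.7 in Control 3. The cold lambs ranged from 4.06 over a median of 11.9 to 16.7, and the AT lambs from 0 over a median of 8.25 to 24.9. AT 3 and AT 4 had 0 counts, which allows up to 4.09 and 2.91 normalized counts (3 counts in the library). Groups overlapped, and the differences of the mean log2 values were -1.04 between cold and control lambs (exact permutation p = 0.214), -2.05 between AT and control lambs (exact permutation p = 0.143) and 1.004 between cold and AT lambs (exact permutation p = 0.31).

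SLC16A10 had 90.0, 93.7 and 88.5 normalized counts in Control 1, Control 3 and Control 2. The AT lambs ranged from 32.5 over a median of 82.7 to 171, and the cold lambs from 15.7 over a median of 41.4 to 153. The controls were close together, and 5 of 6 cold lambs lay below all of them. Cold 4 was the sixth, at 153, with 60.4 in Cold 6 the next. Between cold and AT lambs, the log2FC was -0.74 ± 0.50 (edgeR adjusted p = 0.923), and -1.31 without Cold 4 (unadjusted p = 0.00917, edgeR adjusted p = 0.524). Its 3 highest libraries were AT 4 (171), AT 3 (164) and Cold 4 (153). The summed normalized count of C cell markers was 261031 in AT 4 and 173317 in Cold 4, the highest of all 15 thyroid libraries, and 21329 in AT 3. AT 5 came next by the C cell markers (120427), with SLC16A10 at 88.6. Parathyroid markers summed to 1129 in AT 4, 1267 in Cold 4 and 180 in AT 3, and were highest in Control 2 (9381), with SLC16A10 at 88.5. The part of these cells in the SLC16A10 values was not tested.

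THRA was the most abundant of the 6 genes in thyroid tissue. It had 1609 normalized counts in Control 1, 1641 in Control 3 and 2638 in Control 2. The AT lambs ranged from 1714 over a median of 1897 to 2591, and the cold lambs from 1739 over a median of 1954 to 2472. All 12 treated lambs lay above Control 1 and Control 3 and below Control 2. The log2FC was 0.30 ± 0.18 for cold (edgeR adjusted p = 0.237), and for AT it was 0.30 ± 0.18 (edgeR adjusted p = 0.23), and groups without overlap were found for 35.4% and 27.6% of all genes. With TMM scaling, it was 0.60 for cold (edgeR adjusted p = 0.0506) and 0.62 for AT (edgeR adjusted p = 0.0454). With all 3 controls, it was 0.03 in both comparisons, with an edgeR adjusted p of 0.932 and 0.928, and with Control 2 in place of Control 1 it was -0.09 in both, so both size and direction rested on the control.

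THRB was at 4 to 90 counts in thyroid tissue and reached 10 counts in 10 of 15 libraries. It had 21.1, 8.03 and 11.3 normalized counts in Control 1, Control 3 and Control 2. The cold lambs ranged from 6.09 over a median of 13.6 to 19.8, and the AT lambs from 3.69 over a median of 19.3 to 123. Again the highest value was that of AT 3, and the next was 32.1 in AT 4. Between cold and AT lambs, the log2FC was -1.42 ± 0.67 (edgeR adjusted p = 0.911). Without AT 3 it was -0.42, at an edgeR adjusted p of 0.952. AT 3 thus decided the size of the difference for both DIO1 and THRB, and it was the thyroid library with the muscle markers. Whether muscle tissue gave these reads was not tested.

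**Figure D4:**
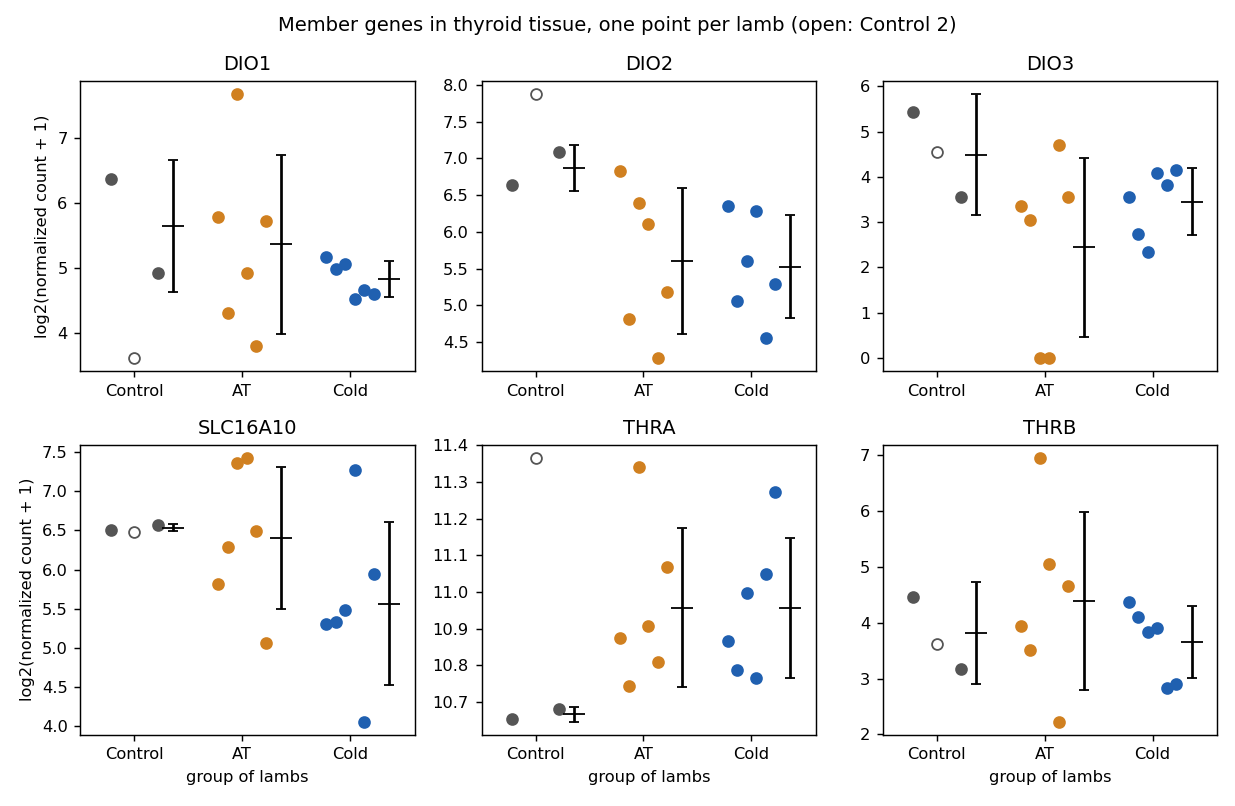
Levels of the 6 genes in thyroid tissue as log2(normalized count + 1), with 1 point per lamb by group, an open point for Control 2, and a bar for the mean ± SD of the filled points. DIO2 is lower in all 6 cold lambs than in the controls, and DIO1 and THRB each have 1 high AT lamb (202 and 123 normalized counts), which is AT 3.

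**Figure D5:**
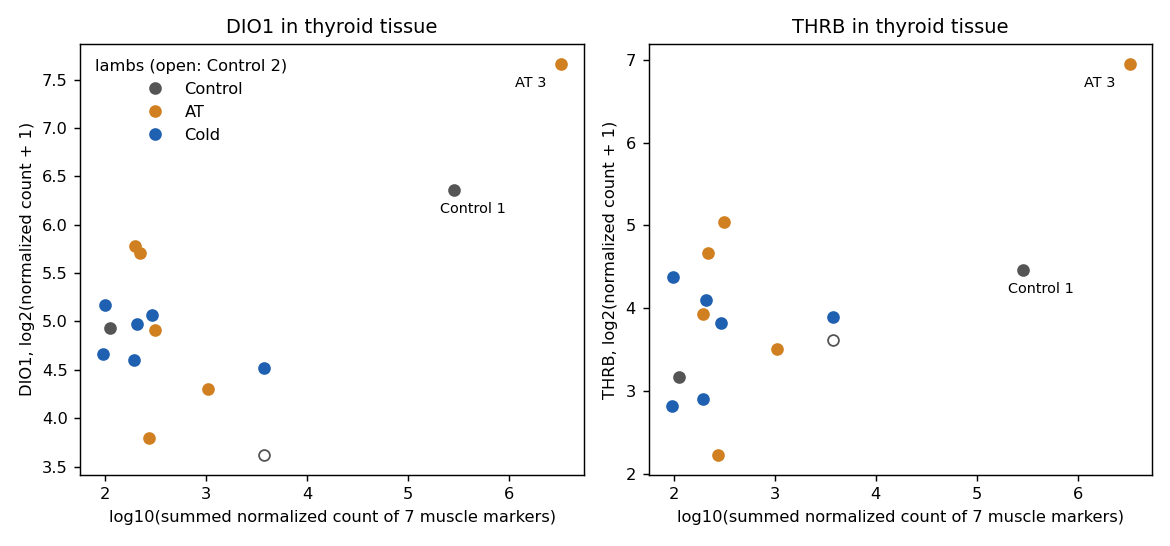
DIO1 and THRB in thyroid tissue, as log2(normalized count + 1), against the summed normalized count of 7 skeletal muscle markers on a log10 axis, with 1 point per lamb and an open point for Control 2. AT 3 lies highest on both axes in either panel, and Control 1 is second by the markers.

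Whether a treatment changed a member differently in BAT and in thyroid tissue was tested in 1 fit of both tissues. None of the 5 genes tested was called, against 0% of 17021 genes for cold against AT, 0.188% for cold against control and 1.66% for AT against control, and none had an unadjusted p under 0.05. Such a p was found for 7.87%, 11.7% and 17.8% of all genes, in the same order of comparisons. For cold against AT, the difference of the log2FC, BAT minus thyroid, was -0.75 ± 0.85 for DIO1 (edgeR adjusted p = 0.888) and 0.51 ± 0.97 for DIO2 (edgeR adjusted p = 0.945). Without AT 3 it was -1.57 for DIO1 (edgeR adjusted p = 0.867), and with the lamb as a block it was -1.26 for DIO1 (edgeR adjusted p = 0.815) and 1.10 for DIO2 (edgeR adjusted p = 0.868).

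Other genes of the pathway were counted from lists written from general knowledge. No gene of any list was called between cold and AT lambs in either tissue, where 0.309% of all genes were called in BAT and 0% in thyroid tissue. Each call named below was lost in 1 to 13 of 18 alternatives, and where all 3 controls or TMM scaling ended it, at least 1 such value is given. Of 12 listed genes of hormone transport, SLC16A10 among them, 9 were tested in each tissue. In BAT, 1 was called lower in cold and 2 in AT lambs than in controls, against 0.879% and 6.15% of all genes. SLC7A5, a subunit of a transporter of neutral amino acids and iodothyronines, fell from 252 ± 1.24 normalized counts (SD, n = 2) in controls to 76.7 ± 25.9 (SD, n = 6) in cold lambs (log2FC -1.81 ± 0.29, edgeR adjusted p = 0.0112) and to 91.6 ± 19.3 in AT lambs (-1.55 ± 0.30, edgeR adjusted p = 0.00722). SLC10A1, a bile acid transporter, was called lower in AT lambs (-1.47 ± 0.44, edgeR adjusted p = 0.0461), but not with all 3 controls (edgeR adjusted p = 0.269). In thyroid tissue, 3 were called lower in cold and 2 in AT lambs, against 16.9% and 18.7% of all genes. SLCO4A1, an organic anion transporter, had a log2FC of -3.06 ± 0.66 for cold (edgeR adjusted p = 0.00841), and for AT it was -2.69 ± 0.66 (edgeR adjusted p = 0.0128), from control values that differed widely (127 ± 95.8, SD, n = 2). SLC7A5 had -1.67 ± 0.47 for cold (edgeR adjusted p = 0.0262, and 0.0726 with all 3 controls). The median log2FC of the list was -0.59 for cold and -0.51 for AT in thyroid tissue, against -0.28 over all genes.

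Plasma binding proteins of thyroid hormone were nearly absent, with 1 of 4 tested in BAT, 0 of 4 in thyroid tissue, and none called. Of 22 receptor partners and coregulators, all were tested. In BAT, 2 were called lower for each treatment against controls and 0 higher, against 0.879% and 6.15% lower over all genes. PRMT1, an arginine methyltransferase, was among them for both treatments. Its log2FC was -0.74 ± 0.18 for cold (edgeR adjusted p = 0.0487, and 0.0645 with TMM scaling) and for AT it was -0.77 ± 0.18 (edgeR adjusted p = 0.0151, and 0.0232 with TMM scaling). In thyroid tissue, 4 were called lower for cold and 5 for AT, near the 16.9% and 18.7% over all genes. PRMT1 had -1.12 ± 0.24 for cold (edgeR adjusted p = 0.00768, and 0.072 with all 3 controls), and NCOA1, a coactivator, had -0.67 ± 0.16 for cold (edgeR adjusted p = 0.012), and for AT it was -0.78 ± 0.16 (edgeR adjusted p = 0.00498). With TMM scaling, NCOA1 was at -0.35 and -0.42 and was not called (edgeR adjusted p = 0.104 and 0.0564). PRMT1 had -0.93 ± 0.24 for AT (edgeR adjusted p = 0.0156, and 0.172 with all 3 controls).

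Of 18 listed genes for the turnover of DIO2 protein and for making selenoproteins, 16 were tested. In BAT, 0 were called for cold, and for AT 1 was called, SEPHS2, the selenophosphate synthetase (-0.64 ± 0.19, edgeR adjusted p = 0.0487, and 0.0748 with TMM scaling), a call lost in 11 of 18 alternatives. Over all genes in BAT, 1.48% were called for cold and 9.3% for AT. In thyroid tissue, 5 of 16 were called lower for each treatment against controls and 0 higher, against 16.9% and 18.7% lower over all genes. The median log2FC of the list was -0.61 for cold and -0.43 for AT, against -0.28 over all genes. LRP8, a receptor for selenoprotein P, fell from 570 ± 102 normalized counts (SD, n = 2) to 151 ± 57.3 in cold lambs (log2FC -1.91 ± 0.37, edgeR adjusted p = 0.0046) and 152 ± 50.4 in AT lambs (-1.91 ± 0.37, edgeR adjusted p = 0.00382), and it was called also with TMM scaling and with all 3 controls, but not without Control 3. EEFSEC, the elongation factor that brings selenocysteine to the ribosome, had -1.12 ± 0.20 for cold (edgeR adjusted p = 0.00365), and for AT it was -0.94 ± 0.20 (edgeR adjusted p = 0.00645, and 0.0812 with all 3 controls). Control 1, in which the muscle markers were raised, is 1 of the 2 controls behind these thyroid values, and its part in them was not tested.

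Among 23 genes known to respond to thyroid hormone, 21 were tested in each tissue. In BAT, 1 was called higher for cold, and 5 higher and 1 lower for AT, against 0.604% higher over all genes for cold, and 3.15% higher and 6.15% lower for AT. THRSP, a gene of fat synthesis, rose from 43.0 ± 6.01 normalized counts (SD, n = 2) in controls to 617 ± 166 (SD, n = 6) in cold lambs (log2FC 3.76 ± 0.82, edgeR adjusted p = 0.0396, and 0.051 with all 3 controls) and 667 ± 564 in AT lambs (3.90 ± 0.83, edgeR adjusted p = 0.0129). PCK1, of glyceroneogenesis, rose in AT lambs (3.49 ± 1.03, edgeR adjusted p = 0.0482), a call lost in 8 of 18 alternatives, and CPT1A, which admits fatty acids to mitochondria, fell (-1.59 ± 0.30, edgeR adjusted p = 0.00731). In thyroid tissue, 1 was called higher and 4 lower for each treatment, against 2.34% higher and 16.9% lower over all genes for cold and 2.23% and 18.7% for AT, so that the lower calls were near the background. DBP, a clock gene, rose for cold (1.22 ± 0.34, edgeR adjusted p = 0.0236) and likewise for AT (1.32 ± 0.34, edgeR adjusted p = 0.0156), but not with all 3 controls (edgeR adjusted p = 0.188 and 0.132). ME1, malic enzyme, fell for cold (-1.99 ± 0.50, edgeR adjusted p = 0.0167) and in AT lambs (-1.76 ± 0.51, edgeR adjusted p = 0.0259), PDK4, a kinase of pyruvate dehydrogenase, fell for cold (-2.40 ± 0.75, edgeR adjusted p = 0.0428), and UCP1 fell for AT (-3.26 ± 1.07, edgeR adjusted p = 0.0445). ME1 was not called with all 3 controls (edgeR adjusted p = 0.0756 and 0.132), nor PDK4 and UCP1 with TMM scaling (edgeR adjusted p = 0.0872 and 0.114). The UCP1 call was lost in 12 of 18 alternatives, DESeq2's Wald test among them, and UCP1 had 7 to 68 counts in the thyroid tissue of AT lambs. The paper reported no significant difference of UCP1 in either tissue. 

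Of 14 genes known to activate DIO2 or to lie upstream of it, 12 were tested in BAT and 0 were called, against 1.48% of all genes for cold and 9.3% for AT against controls. All 14 were tested in thyroid tissue, where GPBAR1, the bile acid receptor, was called higher for cold (2.38 ± 0.64, edgeR adjusted p = 0.0212) and in AT lambs (2.33 ± 0.64, edgeR adjusted p = 0.0204), but not with all 3 controls (edgeR adjusted p = 0.76 and 0.792). Of all genes there, 2.34% were called higher for cold and 2.23% for AT. Near DIO3, in the imprinted region from DLK1 to DIO3, 4 of 7 listed genes were in the table and 3 were tested. None was called in BAT, and RTL1, a retrotransposon-derived gene of this region, was called lower in thyroid tissue for cold (-1.50 ± 0.47, edgeR adjusted p = 0.0365) and in AT lambs (-1.41 ± 0.47, edgeR adjusted p = 0.0443), but not with TMM scaling (edgeR adjusted p = 0.114 and 0.157). The share called lower in thyroid tissue over all genes was 16.9% for cold and 18.7% for AT.

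For each member, the genes with a symbol whose level followed it most closely over the 12 treated lambs are named as a description, with no test, since 14905 genes in BAT and 16122 in thyroid tissue were compared. In BAT, DIO1 was followed by FAH (r = 0.95), ZKSCAN5 (0.95) and SLC9A5 (0.94), DIO2 by SLC6A12 (0.92), MRPS14 (0.90) and ANAPC11 (0.89), and SLC16A10 by PDZD3 (0.92), TEAD1 (0.91) and NEIL2 (0.89). THRA was followed there by ZNF777 (0.94), SNRNP200 (0.92) and PALM (0.92), and THRB by FGGY (0.88), PRDM8 (0.85) and ANP32B (0.84). In thyroid tissue, DIO1 was followed by CDKN1A (0.98), TUBA1A (0.97) and MSX1 (0.97), DIO2 by SCAND1 (0.94) and NFKBIE (0.91), and SLC16A10 by SLC39A3_1 (0.96), TMEM259 (0.94) and FAM171A2 (0.93). THRA was followed there by DTWD1 (0.93), MTFR1L (0.91) and AMHR2 (0.90), and THRB by MLYCD (0.94), P4HA1 (0.93) and MRPL11 (0.93). An absolute r of at least 0.8 was reached by 1163 genes with DIO1 and 607 with THRB in thyroid tissue, where AT 3 was high for both, and by 74 genes with DIO2.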

How the data were processed

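RNA of BAT and thyroid tissue of 15 lambs was sequenced in 30 libraries. The authors trimmed reads with Trimmomatic 0.39, aligned them with STAR 2.7.7a to Oar_rambouillet_v1.0 and counted them per gene with featureCounts (Subread 2.0.0), reads at several places included, and they deposited whole-number counts without normalization. Chromosome numbers were given to the table's sequences by gene names shared with RefSeq's ARS-UI_Ramb_v3.0.

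Counts were tested with edgeR 4.0.16 (R 4.3.3), robust quasi-likelihood, 2-sided, on size factors of ACTB, RPL19 and HUWE1 from DESeq2 1.42.0, for genes that had 10 or more reads in 10 or more libraries. All 3 groups entered 1 fit per tissue, and both tissues 1 further fit without a term for the lamb. A gene was called at a Benjamini-Hochberg adjusted p under 0.05 over all genes. Where nothing else is said, 2 controls were used, identified by the study's normalized counts. Correlations and permutation tests used log2(normalized count + 1), with 100000 draws or all orders. The paired tests over 15 lambs and over 15 libraries were added after the data were seen. SD and SE are given as such, and limits from 3 counts cover counting error only.

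By the titles, each lamb gave both of its libraries, whose deviations from the group means correlated with a median r of 0.23 over 14 lambs (0.05 to 0.33). All pairs of libraries of a tissue differed beyond sampling noise (chi-square over its degrees of freedom at least 38.4 for BAT, 29.5 for thyroid tissue). The lambs are separate animals, and the p-values within a tissue and of the paired tests measure the spread between them. The edgeR p-values of the fit of both tissues took the libraries of a lamb as independent, apart from the alternative with the lamb as a block. The members, lists and tests were chosen with earlier results of these data known. Named genes are the members, the reference genes, up to 2 called genes of each direction, list and comparison with the largest log2FC, the 3 genes most like each member, genes overlapping it, and UCP1, PPARGC1A and ADRB3. Some genes that meet this rule are not reported here, but they stay in the counts. The fits were also run on simulated data, with the same spread for every gene and nearly no noise in the reference genes. Members such as DIO2 in BAT varied more than that, so the simulation does not tell how the fits perform for them. Alternatives were TMM and median-of-ratios scaling, DESeq2's Wald test, all 3 controls, other filters, the RNA integrity number as covariate, only the groups compared, a 2-fold minimum, the lamb as a block, and each lamb left out.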

Additional observations from a re-analysis of the deposited data

Results flagged for a closer look

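In 4 of 24 groups of 6 lambs, 1 library lay far from the others, by a gap to the next library larger than Dixon's 95% critical value of 0.625 of the group's range. Chance gives about 1 in 20 such groups where values are normally distributed. These counts are skewed, all 4 libraries were the highest of their group, and on the log2 scale, a scale added after the data were seen, the gaps were 0.489 (DIO1), 0.404 (THRB), 0.252 (DIO2) and 0.414 (SLC16A10) of the range, all under that value. DIO1 in thyroid tissue had 202 normalized counts in AT 3, with 53.8 the next (gap 0.784 of the range). THRB in thyroid tissue had 123 in the same library, with 32.1 the next (0.762). DIO2 in BAT had 1016 in AT 2, with 383 the next (0.636), and UCP1 was highest of the AT lambs there as well, at 12962. SLC16A10 in thyroid tissue had 153 in Cold 4, with 60.4 the next (0.675), where the C cell markers were also the highest of the cold lambs, at a summed normalized count of 173317. The part of these markers in the values was not tested.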

How the results depend on the processing

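Results against controls depended on which controls were used. The number of members called was 1 in place of 0 for BAT cold against control when Control 2 stood in for Control 1 or Control 3 (DIO1), for thyroid cold against control with all 3 controls or with Control 2 in place of Control 1 (DIO2, log2FC -1.64 and -1.89), and for thyroid AT against control with TMM or median-of-ratios scaling (THRA, 0.62 and 0.62). For BAT against thyroid in control lambs it was 0 without Control 1 or without Control 3, in place of 3, and it was 4 in AT lambs without AT 3 and in cold lambs without Cold 5 or Cold 6 (THRA added). DIO1 in BAT ran from -1.33 to 0.0578 with a control left out (cold against control, above 0 without Control 1). For AT against control it turned to -0.77 with all 3 controls and to -1.12 and -1.24 with Control 2 for Control 1 or Control 3. DIO2 in BAT ran from -0.34 (without Cold 4) to 1.21 (without AT 2) for cold against AT. THRA in thyroid tissue turned to -0.09 with Control 2 in place of either control (cold, -0.0949 and -0.0856, and AT, -0.0907 and -0.0829). THRA between the tissues turned to -0.0813 with median-of-ratios scaling in cold lambs and to -0.0306 with TMM over 15 lambs. Causes were not tested.

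The lamb as a replicate block changed no call between the tissues: the log2FC in AT lambs was 5.66 for DIO1, 2.95 for DIO2 and 2.62 for THRB. The 9 fold changes of called members kept their direction in all 111 alternatives and lost the call in 6, those with 1 control. Of 51 fold changes not called, 29 changed sign in at least 1 alternative. Counts under 10 limit DIO3.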

Other observations

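The 6 genes were also compared between the tissues of a lamb. Over the 12 treated lambs, the level of a member in BAT and its level in thyroid tissue had a Pearson r between -0.35 (DIO3, permutation p = 0.246, adjusted p = 0.553, Spearman rho = -0.27, permutation p = 0.395) and 0.30 (SLC16A10, permutation p = 0.347, adjusted p = 0.567, Spearman rho = 0.27, permutation p = 0.403). For DIO3, r was -0.45 without Cold 1 and Cold 2 and for SLC16A10 it was -0.04 without AT 4 and AT 5, the 2 lambs farthest from the median in each case. The lowest adjusted p of the 6 relations was 0.553 for r and 0.518 for rho, which does not show that the tissues vary independently.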
